A study of Mus musculus with 24 samples.

Results

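The comparison described here is the difference between the LPS response of PWD dendritic cells and that of C57 dendritic cells. For each gene it is the change after LPS in PWD cells minus the change after LPS in C57 cells, on the log2 scale of TPM + 1 (TPM is transcript abundance per length, scaled to a fixed total in every library). It compares 16 of the series' 24 libraries, 4 in each of 4 groups. The spread behind the p-values and the expression filter were taken over all 24 libraries, B6 included. Of 55291 symbols in the table, 13246 genes were tested. A positive difference means that LPS raised a gene more, or lowered it less, in PWD cells than in C57 cells. The study asks how natural genetic variation in mice derived from the wild bears on the transcriptional response to endotoxin. The groups were PWD cells with LPS, untreated PWD cells, C57 cells with LPS and untreated C57 cells. PWD mice are inbred but descend from wild-caught Mus musculus musculus. C57 is written as in the labels; no source used here says how it differs from the B6 strain of the same series or how old the mice were. The cells were grown from bone marrow for 7 days with GM-CSF, and LPS from E. coli 0111:B4 was then added at 10 ng/ml for 6 hours or omitted, with 4 mice per strain and an independent culture from each.

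LPS, a glycolipid of the outer membrane of Gram-negative bacteria, is bound by CD14 and sensed by the receptor TLR4 with its partner MD-2. One arm of TLR4 signalling runs through MyD88 to NF-kB and drives inflammatory cytokines and chemokines. The other runs through TRIF and IRF3 to interferon beta, which acts back on the cells through its receptor and a transcription factor complex with Irf9 to induce interferon-stimulated genes. In dendritic cells the same stimulus starts maturation, in which the cells take up less antigen, raise costimulatory molecules and secrete the cytokines that instruct T cells.

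The libraries carried the transcripts of a GM-CSF culture. Among conventional dendritic cell markers, Itgax averaged 324 TPM in PWD cells with LPS, 321 in untreated PWD cells, 244 in C57 cells with LPS and 308 in untreated C57 cells, and Zbtb46 averaged 6.26, 9.84, 7.20 and 8.66 TPM in the same order of groups. Flt3 did not reach the expression filter. The 20 macrophage and monocyte markers tested, of 22 listed, summed to 6555 to 7055 TPM in PWD cells with LPS, 7126 to 9936 in untreated PWD cells, 9811 to 13602 in C57 cells with LPS and 15575 to 17201 in untreated C57 cells, so these cultures held the transcripts of both cell types and the sum was lower in PWD. In bulk samples, fewer cells of a type and less RNA per cell cannot be told apart. Mice 1 and 2 of both strains had Ddx3y, a Y-linked gene, at 28.0 to 31.8 TPM and almost no Xist, and mice 3 and 4 had Xist, the transcript of the inactive X chromosome, at 41.9 to 104 TPM and almost no Ddx3y. The number of the mouse thus went with sex. Structural RNA (RNAs of the signal recognition particle, of RNase P and MRP and of mitochondrial ribosomes, with 7SK) also parted by number, most widely in 2 groups. It took 40.3% to 41.9% of TPM in untreated PWD mice 1 and 2 but 28.8% to 29.3% in mice 3 and 4, and 39.9% to 41.2% in C57 mice 1 and 2 with LPS but 31.6% to 33.4% in mice 3 and 4. In untreated C57 cells it parted less and the other way, with 33.8% to 34.1% in mice 1 and 2 and 35.1% to 35.8% in mice 3 and 4. In PWD cells with LPS, at 36.3% to 39.1%, the pairs overlapped.

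The LPS response differed between PWD and C57 cells for 1510 of 13246 genes, 11.4% of those tested (limma, Benjamini-Hochberg adjusted p under 0.05). The response was higher in PWD for 717 genes (5.41%) and lower for 793 (5.99%). The counts of every gene list below are to be read beside these shares. The median absolute difference was 0.72 among the genes called. A difference of at least 1 on the log2 scale was found for 180 genes in the higher and 166 in the lower direction, and one of at least 2 for 25 and 11. For 1390 of the 1510 genes, the 4 responses of PWD mice and the 4 of C57 mice did not overlap, as was the case for 16.5% of all genes tested. Both strains responded widely on TPM as deposited. In PWD 63.5% of genes were called, 11.1% rising and 52.4% falling, and in C57 62.5%, 10.4% and 52.2%. The scale of the libraries also moved with LPS. The median ratio of a library's genes to their averages was 1.04 to 1.36 in untreated and 0.88 to 0.95 in treated PWD libraries. In C57 libraries it was 1.23 to 1.27 and 0.87 to 1.06. Rises and falls within 1 strain are on deposited TPM throughout, and the part of this scale in them was not tested.

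Among the 717 genes with a higher response in PWD, 169 rose in both strains and rose more in PWD, and 215 rose in PWD without a called change in C57. A further 189 fell in C57 without a called change in PWD, 83 fell in both and fell less in PWD, and 60 rose in PWD but fell in C57. Among the 793 with a lower response, 231 fell in both strains and fell further in PWD, and 249 fell in PWD alone by this threshold. Another 169 rose in C57 without a called change in PWD, 92 rose in both and rose less in PWD, and 52 rose in C57 but fell in PWD. The plot of both responses gene by gene shows these classes as the distance from the diagonal.

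**Figure D1:**
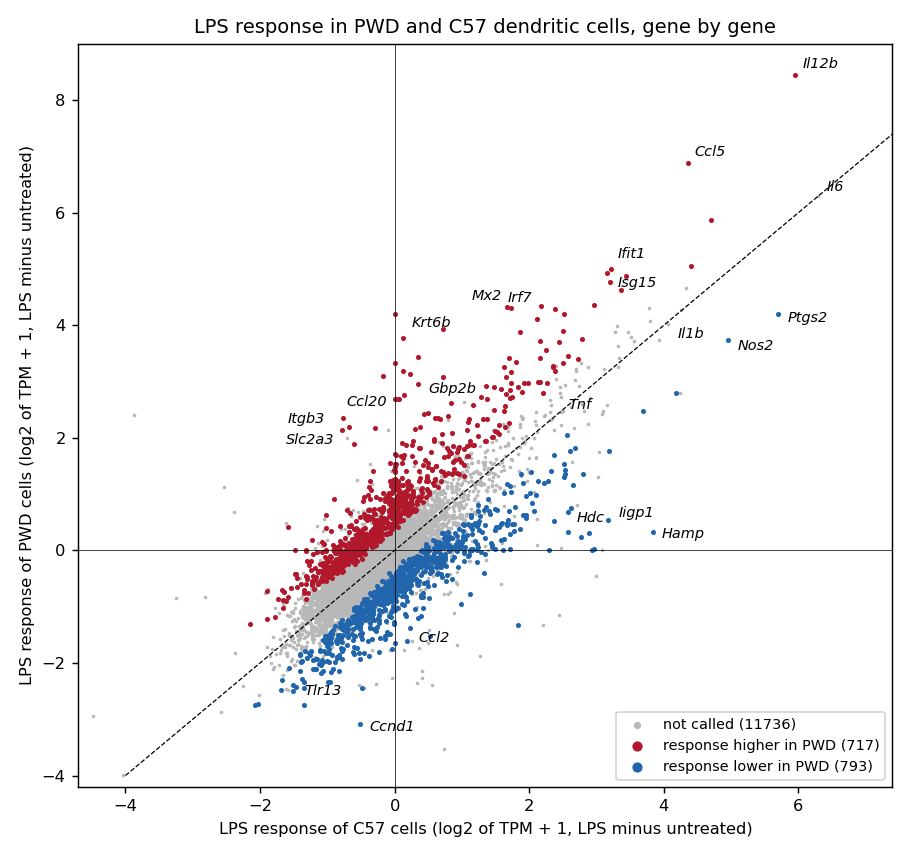
LPS response of each of 13246 genes in PWD cells (vertical axis) and in C57 cells (horizontal axis), as the change in log2 of TPM + 1 after LPS; each point is 1 gene and the dashed line marks equal responses. The 717 genes with a higher response in PWD lie above the line and the 793 with a lower response lie below it; Il12b, with responses of 8.44 in PWD and 5.96 in C57, is the highest point, and Il6 lies on the line.

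The overall level of this contrast moved with the number of the mouse. Over all genes the median difference was 0.26 in mice 1 and 2 and -0.25 in mice 3 and 4, against 0.000269 over all mice. Within mice 1 and 2 the calls were 2790, of which 88.1% were higher, and within mice 3 and 4 they were 2881, of which 11.2% were higher. After each library was scaled by the median of its ratios to the gene averages, these medians were 0.010 and 0.025. The count over all mice then was 2861 genes (21.6%), 1486 higher and 1375 lower, and 1448 of the 1510 genes were among them with the same sign and none with the opposite sign. For 3227 genes (24.4%) the difference itself differed between the number pairs on TPM as deposited, and for 10 (0.0755%) after scaling. The effect of structural RNA and that of sex on TPM cannot be told apart here, and values within each pair of mice are therefore given below for the genes the results turn on. Calls over all genes were 2458 higher and 332 lower in mice 1 and 2, and 324 and 2557 in mice 3 and 4. List counts within a pair carry this shift and are to be read beside it.

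**Figure D2:**
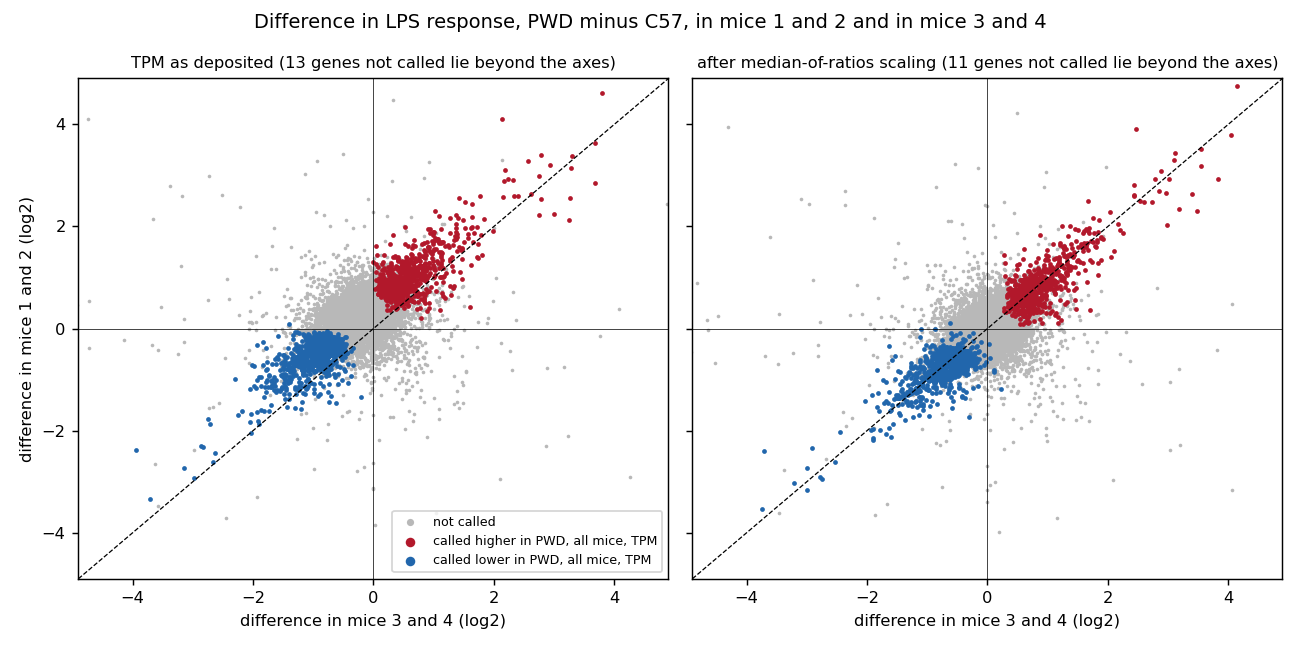
Difference in LPS response, PWD minus C57, of each gene in mice 1 and 2 (vertical axis) and in mice 3 and 4 (horizontal axis), both in log2 units, for TPM as deposited on the left and after median-of-ratios scaling on the right; red and blue points are the genes called higher and lower over all mice on deposited TPM, and 13 and 11 uncalled genes lie beyond the axes of the left and right panels. On the left the cloud lies above the dashed line of equal differences, with medians of 0.26 in mice 1 and 2 and -0.25 in mice 3 and 4, and on the right it is centred on the line.

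The interferon-stimulated genes formed the list with the largest share of called members. Of 43 such genes, all tested, 30 had a higher response in PWD and none a lower one, with a median difference of 0.92 against 0.000269 over all genes. All 43 rose in PWD (11.1% of all genes did), with a median response of 2.97, and 42 rose in C57 (10.4% of all), with a median of 1.75. In untreated cells 41 of the 43 were lower in PWD (26.2% of all genes were), with a median PWD minus C57 difference of -2.10. After LPS 39 were lower in PWD, with a median of -1.21, where the level of 54.2% of all genes differed between the strains and that of 29.8% was lower in PWD. The members called higher were 35 in mice 1 and 2 and 22 in mice 3 and 4, where 2 were called lower, and 33 after scaling, with 1 lower. The fold rise was thus larger and the level after LPS lower in PWD cells for most of the list.

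Isg15, a small modifier that is joined to other proteins during the interferon response, shows both sides of this. It stood at 310.0, 441, 451 and 399 TPM in PWD cells with LPS and 11.5, 9.14, 14.1 and 13.8 TPM in untreated PWD cells, against 773, 813, 847 and 821 TPM in C57 cells with LPS and 91.1, 125, 77.3 and 75.9 TPM in untreated C57 cells (mice 1 to 4 in each group). No 2 of these 4 groups overlapped, and PWD cells with LPS stayed below C57 cells with LPS. The difference in response was 1.78 ± 0.24 (SE; limma adjusted p = 1.21e-05), 2.16 in mice 1 and 2 and 1.40 in mice 3 and 4. Ifit1, which binds foreign RNA ends, had 171 ± 26.8 and 4.33 ± 0.663 TPM in treated and untreated PWD cells and 836 ± 69.9 and 92.9 ± 34.0 TPM in treated and untreated C57 cells (SD, n = 4 each), a difference of 1.80 ± 0.23. Usp18, the protease that removes Isg15 and dampens interferon receptor signalling, differed by 2.00 ± 0.22.

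Rtp4, an interferon-induced receptor transporter protein, was at 64.8, 87.7, 81.9 and 72.2 TPM in PWD cells with LPS and 2.63, 2.80, 2.95 and 3.24 TPM without. C57 cells had 158, 156, 184 and 179.9 TPM with LPS and 51.6, 63.5, 42.8 and 45.2 TPM without. All 4 treated PWD libraries lay above the untreated and below the treated C57 libraries. The difference was 2.58 ± 0.16 (adjusted p = 7.98e-12), 2.92 and 2.23 within the pairs of mice. Irf7, the transcription factor that amplifies type I interferon, had 68.4 ± 10.2 and 2.52 ± 0.252 TPM in treated and untreated PWD cells and 219 ± 17.1 and 41.7 ± 7.42 TPM in treated and untreated C57 cells, a difference of 1.91 ± 0.17. Irf9, the DNA-binding part of the complex that interferon activates, differed by 1.20 ± 0.18, and Oas3, an oligoadenylate synthetase that senses viral RNA, by 2.03 ± 0.19.

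The members whose level after LPS was higher in PWD were Mx2, Ifi44 and Ifi44l. Mx2, a GTPase of the Mx family, stood at 66.4, 101, 93.6 and 81.5 TPM in PWD cells with LPS and 2.82, 2.72, 3.05 and 4.85 TPM without, against 46.8, 51.7, 51.0 and 52.3 TPM in C57 cells with LPS and 14.5, 23.8, 12.3 and 12.1 TPM without. The difference was 2.64 ± 0.23 (adjusted p = 6.46e-09). GENCODE M21 annotates Mx2 as a polymorphic pseudogene in the reference mouse. Ifi44l was listed at 0 in all 8 C57 libraries, while PWD cells had 10.5, 16.4, 15.5 and 14.2 TPM with LPS and 0.258, 0.476, 0.505 and 0.733 TPM without. Its difference of 3.34 ± 0.16 rests on the C57 zeros, and how reads were shared with the neighbouring family member Ifi44 was not tested.

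The other 13 members had no called difference. Rsad2, an enzyme that makes an antiviral nucleotide, had 85.9, 131, 132 and 113 TPM in PWD cells with LPS and 4.47, 3.77, 5.69 and 5.39 TPM without, against 1062, 1243, 1199 and 1084 TPM in C57 cells with LPS and 74.0, 133, 69.1 and 66.0 TPM without. The C57 levels were above the PWD levels in both states, and the 2 responses differed by 0.52, with a 95% interval of -0.01 to 1.06 (adjusted p = 0.227). Cxcl10, an interferon-inducible chemokine for activated T cells that was counted with the chemokines, had 87.3 ± 11.8 and 5.76 ± 1.30 TPM in treated and untreated PWD cells and 2103 ± 159 and 182 ± 55.5 TPM in treated and untreated C57 cells. Its responses differed by 0.15 (-0.34 to 0.64; adjusted p = 0.78), although its level was lower in PWD in both states. Ifnb1, interferon beta itself, was low throughout, at 0.298, 0.646, 1.05 and 0.48 TPM in PWD cells with LPS and 0.111, 0, 0 and 0 TPM without, against 5.30, 5.54, 6.08 and 4.43 TPM in C57 cells with LPS and 0.267, 1.89, 0.688 and 0.274 TPM without. All C57 libraries with LPS were above all others. Its difference of -1.28 ± 0.31 (adjusted p = 0.00614) missed the threshold within either pair of mice and was -0.52 with a pseudocount of 0.1 TPM (adjusted p = 0.744). In the list of interferon beta, its receptors and Jak-Stat signalling, 7 of 24 tested members were called higher (among them Ifnar1, Ifnar2, Ifngr1, Irf7, Irf9 and Ikbke) and 2 lower (Ifnb1 and Irf5), with a median of 0.06. The direction of this list turned with the number of the mouse, as did that of all genes. Their medians were 0.26 in mice 1 and 2 and -0.25 in mice 3 and 4. In mice 1 and 2, 12 were higher and 0 lower, with a median of 0.42. In mice 3 and 4, 2 were higher and 6 lower, with a median of -0.32, and Ikbke was not called there (0.35, adjusted p = 0.184). After scaling the counts were 9 and 4.

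**Figure D3:**
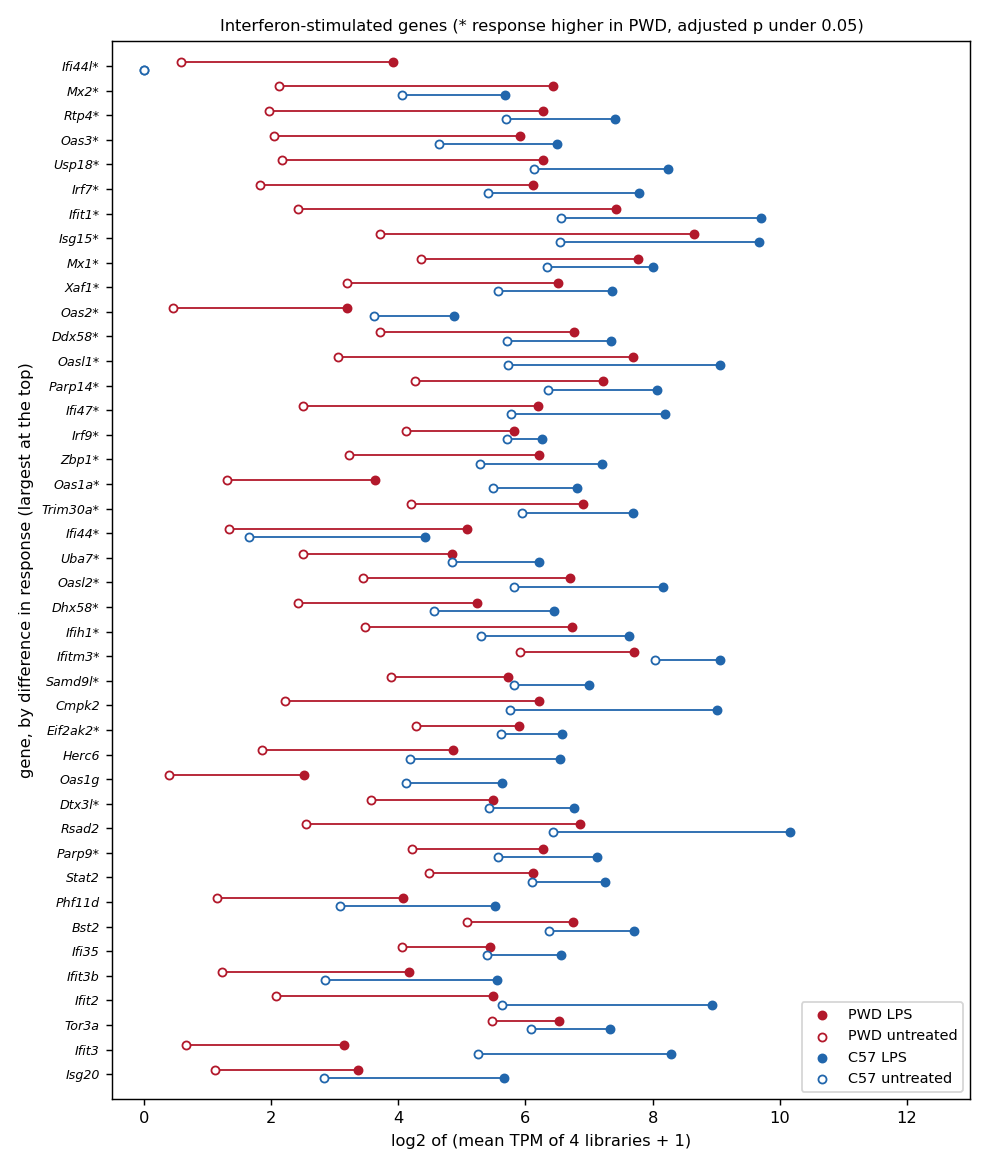
Level of 42 of the 43 interferon-stimulated genes as log2 of mean TPM + 1 over 4 libraries (horizontal axis), ordered by the difference in response; red marks are PWD and blue marks C57, filled with LPS and open untreated, and each line joins the 2 states of 1 strain, so that its length is the response. The red lines are longer for most genes but start further to the left; the 29 genes with a star were called, and after LPS 38 of the genes drawn were lower in PWD.

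Interferon-stimulated genes are induced through the interferon response element, here searched as GAAA, any 2 bases, GAAA on either strand in RefSeq promoters of build GRCm38.p6, from 250 bases before to 50 after the start of the gene. The element was found in 15 of the 32 listed genes with a promoter in the table (46.9%) and in 3.44% of 9419 tested genes with one. Within the list it was found in 9 of 20 genes called higher (45.0%) and 6 of 12 not called. Over all called genes it was 6.92% of 520 genes with a higher and 6.55% of 565 with a lower response. The NF-kB element, searched as GGGA, any 2 bases, TTCC, was found in 2.31% and 1.95% of these, against 1.57% of all. Promoters of 3 genes with a higher response and 2 with a lower response, chosen after their values were seen, are shown 5′ to 3′ with the matches in capitals; overlapping matches run together, and in Gbp5 the second run is the NF-kB element.
Isg15: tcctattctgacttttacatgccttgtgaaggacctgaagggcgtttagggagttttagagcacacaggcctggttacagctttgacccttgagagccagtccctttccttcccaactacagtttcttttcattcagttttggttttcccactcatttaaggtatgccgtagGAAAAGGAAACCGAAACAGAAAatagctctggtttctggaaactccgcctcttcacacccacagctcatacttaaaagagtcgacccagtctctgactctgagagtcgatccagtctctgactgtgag
Oas3: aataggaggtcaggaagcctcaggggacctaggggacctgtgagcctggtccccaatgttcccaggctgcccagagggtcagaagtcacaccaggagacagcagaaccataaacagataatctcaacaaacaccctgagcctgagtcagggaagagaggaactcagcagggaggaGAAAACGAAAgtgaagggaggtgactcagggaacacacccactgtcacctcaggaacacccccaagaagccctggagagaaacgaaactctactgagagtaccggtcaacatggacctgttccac
Gbp5: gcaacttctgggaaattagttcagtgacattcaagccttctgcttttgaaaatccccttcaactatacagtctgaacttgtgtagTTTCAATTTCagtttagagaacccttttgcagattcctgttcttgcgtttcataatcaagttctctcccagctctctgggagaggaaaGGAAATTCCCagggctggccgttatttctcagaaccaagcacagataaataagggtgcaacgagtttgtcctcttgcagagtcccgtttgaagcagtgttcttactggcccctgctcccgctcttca
Ifi206: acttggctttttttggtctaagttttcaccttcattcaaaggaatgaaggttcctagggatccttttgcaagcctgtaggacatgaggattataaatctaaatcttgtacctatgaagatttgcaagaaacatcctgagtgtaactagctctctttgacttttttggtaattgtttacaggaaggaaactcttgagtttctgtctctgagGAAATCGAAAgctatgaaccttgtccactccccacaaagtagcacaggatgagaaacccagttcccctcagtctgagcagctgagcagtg
Apol9b: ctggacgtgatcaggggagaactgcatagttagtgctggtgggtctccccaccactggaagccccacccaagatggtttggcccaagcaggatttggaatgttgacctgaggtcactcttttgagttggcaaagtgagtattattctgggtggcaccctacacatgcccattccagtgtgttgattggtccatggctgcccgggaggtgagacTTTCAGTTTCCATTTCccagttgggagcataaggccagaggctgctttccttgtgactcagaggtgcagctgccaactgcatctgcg
The promoter of Isg15 lies at chr4:156200769-156201068, minus strand, with 3 overlapping matches that begin 78, 72 and 66 bases before the start, and that of Oas3 at chr5:120777610-120777909, minus strand, with 1 match. That of Gbp5 lies at chr3:142496684-142496983, plus strand, with 1 match to each element. Those of Ifi206, at chr1:173491269-173491568, minus strand, and Apol9b, at chr15:77728822-77729121, plus strand, carry 1 and 2 matches, although both genes had a lower response in PWD. A match describes these letters in the reference sequence and is not evidence of binding.

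The interferon-inducible GTPases of the GBP and IRG families, which attack vacuoles that hold pathogens, went both ways. Of 17 tested, 4 had a higher response in PWD (Gbp2b, Gbp5, Irgm1 and Irgm2) and 2 a lower one (Gbp4 and Iigp1), with a median of 0.25. The higher and lower counts were 8 and 2 in mice 1 and 2, with a median of 0.57. In mice 3 and 4 they were 3 and 2, with a median of -0.20, and after scaling 5 and 2. Gbp2b was a PWD gene in these data, at 58.9, 73.5, 75.9 and 67.1 TPM in PWD cells with LPS and 7.26, 7.04, 9.14 and 8.29 TPM without, against 0.769, 0.671, 1.28 and 0.873 TPM in C57 cells with LPS and 0.477, 0.689, 0.404 and 0.373 TPM without. Iigp1 was the reverse, at 0.28, 0.553, 0.453 and 0.579 TPM in PWD cells with LPS and 0, 0, 0 and 0.043 TPM without, against 23.8, 25.9, 27.8 and 23.9 TPM in C57 cells with LPS and 1.58, 2.50, 1.96 and 1.71 TPM without. Their differences were 2.62 ± 0.24 and -2.64 ± 0.23. That of Iigp1 was -1.32 with a pseudocount of 0.1 TPM (adjusted p = 0.015). Gbp5, a partner of the inflammasome, reached overlapping levels with LPS, 188 ± 27.1 TPM in PWD and 198 ± 14.1 TPM in C57, above a base of 5.51 ± 1.62 TPM in PWD and 17.7 ± 4.95 TPM in C57, for a difference of 1.44 ± 0.23. Irgm1, a regulator of these GTPases, differed by 1.44 ± 0.21 (1.94 in mice 1 and 2 and 0.93 in mice 3 and 4) and Gbp4 by -1.43 ± 0.26. Members of these families have near-identical copies, and how reads were divided among copies was not tested.

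A lower response on a PWD level near 0 was also seen in other families. Ifi206, of the PYHIN family of nucleic acid sensors, was at 0.33, 0.285, 0.363 and 0.25 TPM in PWD cells with LPS and 0.0609, 0.0246, 0.0597 and 0.0784 TPM without, against 62.8, 66.7, 74.9 and 71.6 TPM in C57 cells with LPS and 7.71, 11.8, 6.95 and 7.84 TPM without. Apol7c and Apol9b, of the apolipoprotein L family, averaged 0.248 and 0.0136 TPM in PWD cells with LPS and 90.7 and 10.0 TPM in C57 cells with LPS. The differences were -2.58 ± 0.20, -2.54 ± 0.18 and -2.95 ± 0.17. With a pseudocount of 0.1 TPM they were -1.63, -1.67 and -4.21. PWD cells had almost no transcript of these genes in either state, and no fold against these levels is given. Over all genes, 116 called genes averaged under 1 TPM in both PWD groups, 58 of them in the lower direction, and 193 averaged under 1 TPM in both C57 groups, 88 of them in the higher direction.

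Inflammatory cytokines were called often in both directions, 8 of 24 tested members higher and 6 lower, with a median of 0.07. The 2 subunits of interleukin 12, which instructs T helper 1 cells, moved apart. Il12b, the p40 subunit shared by interleukins 12 and 23, stood at 833, 1073, 1222 and 1298 TPM in PWD cells with LPS and 1.75, 2.99, 2.10 and 1.84 TPM without, against 205, 189, 233 and 291 TPM in C57 cells with LPS and 2.38, 2.13, 3.22 and 3.04 TPM without. The untreated groups overlapped and the treated groups did not. The difference was 2.49 ± 0.33 (adjusted p = 1.68e-05), 2.23 in mice 1 and 2 and 2.75 in mice 3 and 4. Il12a, the p35 subunit that is particular to interleukin 12, was at 0.993, 1.29, 1.71 and 1.98 TPM in PWD cells with LPS and 0 in all untreated PWD libraries, against 4.29, 6.04, 6.35 and 6.98 TPM in C57 cells with LPS and 0.167, 0.323, 0.129 and 0.171 TPM without. Its difference of -1.21 ± 0.20 (adjusted p = 0.000108) was -0.40 with a pseudocount of 0.1 TPM (adjusted p = 0.627).

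Il23a, the p19 subunit that pairs with p40 to make interleukin 23, followed Il12b, with 43.6, 42.4, 52.9 and 56.6 TPM in PWD cells with LPS and 1.73, 1.91, 3.17 and 2.70 TPM without, against 5.52, 6.32, 6.66 and 7.34 TPM in C57 cells with LPS and 0.317, 0.521, 0.326 and 0.13 TPM without. PWD was higher in both states, and the difference of 1.40 ± 0.21 (adjusted p = 3.13e-05) was 0.30 with a pseudocount of 0.1 TPM (adjusted p = 0.759). The parts of interleukin 27 also parted. Il27, its p28 subunit, had 6.10, 6.96, 8.01 and 7.58 TPM in PWD cells with LPS and 0.518, 0.171, 0.516 and 0.703 TPM without, against 35.2, 33.7, 39.6 and 32.8 TPM in C57 cells with LPS and 2.50, 1.79, 1.84 and 1.19 TPM without, a difference of -1.22 ± 0.21 that was -0.48 with the smaller pseudocount (adjusted p = 0.49). Ebi3, its other subunit, differed by 0.89 ± 0.13 in the opposite direction, with 63.5 ± 6.42 TPM in PWD cells with LPS and 46.2 ± 4.27 TPM in C57 cells with LPS. In absolute level, then, treated PWD cells had more Il12b, Il23a and Ebi3 and less Il12a and Il27.

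Tslp, a cytokine known from epithelia that primes dendritic cells, was induced in PWD cells, with 5.57, 7.58, 10.5 and 11.5 TPM with LPS and 0.0656, 0.15, 0 and 0.103 TPM without, and hardly seen in C57 cells, with 0.0807, 0.335, 0.412 and 0.0843 TPM with LPS and 0, 0.0933, 0 and 0.0813 TPM without. Its difference was 2.91 ± 0.21 (adjusted p = 1.35e-10), 4.55 with a pseudocount of 0.1 TPM. Tnfsf10, the death ligand TRAIL, was induced in C57 cells, 0.927, 1.35, 1.54 and 1.29 TPM in PWD cells with LPS against 12.4, 14.6, 14.4 and 11.4 TPM in C57 cells with LPS, and differed by -1.86 ± 0.21. Il33, Lif, Tnfsf15 and Tnfsf9 were also called higher, and Il15, Osm and Csf1 lower.

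Tnf, Il6, Il1b and Il10 did not pass the test. Tnf stood at 585, 695, 680.0 and 694 TPM in PWD cells with LPS and 79.8, 85.0, 111 and 103 TPM without, against 635, 638, 758 and 808 TPM in C57 cells with LPS and 123, 128, 132 and 129 TPM without. The treated groups overlapped, and the difference was 0.35 with a 95% interval of 0.02 to 0.69 (adjusted p = 0.191); with scaled libraries it was 0.37 and was called (adjusted p = 0.0437). Il6 had 438, 494, 506 and 520.1 TPM in PWD cells with LPS and 4.42, 5.33, 5.01 and 6.35 TPM without, against 783, 887, 1013 and 953 TPM in C57 cells with LPS and 8.77, 15.4, 10.4 and 8.89 TPM without. PWD was lower in both states with no overlap, and the responses differed by 0.01 (-0.48 to 0.49). Il1b differed by -0.03 (-0.41 to 0.34), with 6593 ± 154 TPM in PWD cells with LPS and 4551 ± 609.9 TPM in C57 cells with LPS. Il10, the main inhibitory cytokine, differed by 0.17 (-0.25 to 0.60), with 4.33 ± 0.181 and 3.82 ± 0.597 TPM in treated PWD and C57 cells.

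**Figure D4:**
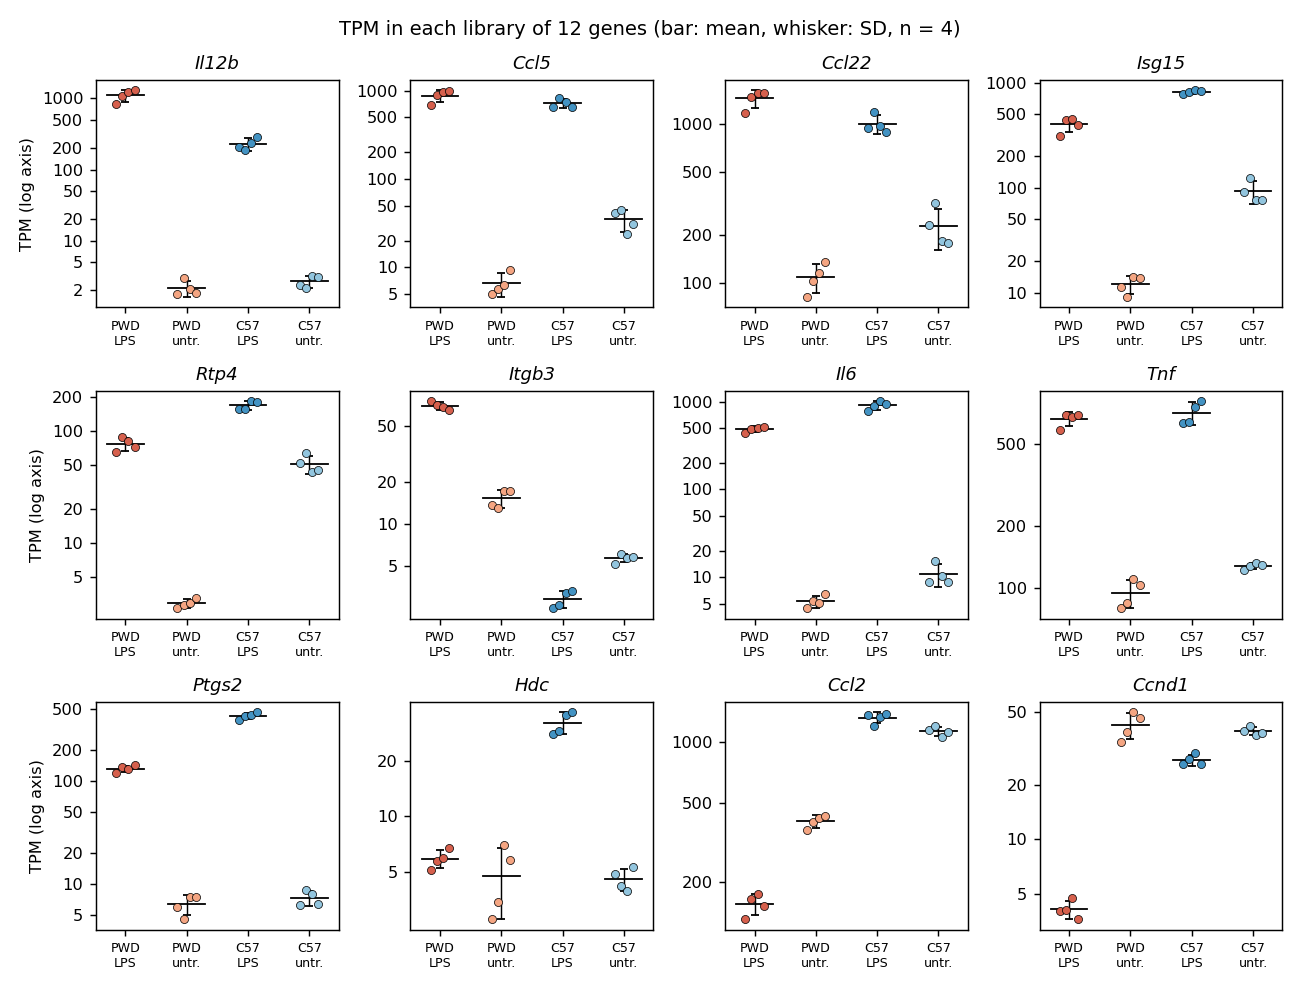
TPM of 12 genes in each library on a log axis, in PWD cells with LPS, untreated PWD cells, C57 cells with LPS and untreated C57 cells; points are libraries of mice 1 to 4 from left to right, bars are means and whiskers SD (n = 4). Il12b reached 833 to 1298 TPM in PWD cells with LPS and 189 to 291 TPM in C57 cells with LPS from overlapping untreated levels, Il6 and Tnf were not called, and Ccl2 and Ccnd1 were lowest in PWD cells with LPS.

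Among chemokines 5 of 23 tested members had a higher response in PWD (Ccl5, Ccl20, Ccl22, Cxcl1 and Ccl9) and 3 a lower one (Ccl2, Ccl7 and Ccl24), with a median of 0.00129. Ccl5, which attracts T cells and monocytes, had 686, 886, 964 and 984 TPM in PWD cells with LPS and 4.98, 5.63, 6.26 and 9.40 TPM without, against 646, 828, 749 and 652 TPM in C57 cells with LPS and 40.8, 44.8, 23.7 and 30.8 TPM without. The treated groups overlapped, untreated PWD cells lay below untreated C57 cells, and the difference was 2.53 ± 0.25 (adjusted p = 2.54e-07). Ccl22, a ligand of CCR4 made by mature dendritic cells, had 1438 ± 184 and 109 ± 22.4 TPM in treated and untreated PWD cells and 995 ± 134 and 227 ± 65.3 TPM in treated and untreated C57 cells, a difference of 1.57 ± 0.24. Ccl20, the ligand of CCR6, was seen with 5.41, 5.12, 9.87 and 9.09 TPM in PWD cells with LPS and with at most 0.192 TPM in any C57 library, a difference of 2.62 ± 0.20.

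Ccl2 and Ccl7, which attract monocytes, fell in PWD cells. Ccl2 stood at 131, 166, 174 and 153 TPM in PWD cells with LPS and 365, 399.8, 422 and 429 TPM without, against 1379, 1211, 1343 and 1393 TPM in C57 cells with LPS and 1158, 1205, 1062 and 1133 TPM without. PWD and C57 did not overlap in either state, and the responses were -1.37 in PWD and 0.22 in C57, a difference of -1.60 ± 0.12 (adjusted p = 4.45e-10), -1.50 and -1.69 within the pairs of mice. Its neighbour Ccl7, on chromosome 11 as well, fell by 0.83 in PWD and rose by 0.39 in C57, a difference of -1.22 ± 0.15. Ccl24, an eosinophil attractant, was a PWD transcript, with 20.0, 16.4, 25.2 and 22.1 TPM in PWD cells with LPS and 67.4, 39.9, 71.9 and 71.3 TPM without, against 2.50, 1.84, 3.37 and 1.23 TPM in C57 cells with LPS and 1.51, 0.788, 0.76 and 1.89 TPM without, a difference of -2.03 ± 0.37.

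Enzymes of inflammatory mediators included 4 of 23 called higher (Arg2, Asl, Acod1 and Hpgds) and 4 called lower (Nos2, Ptgs2, Kynu and Hdc), with a median of -0.12. Ptgs2, the inducible cyclooxygenase of prostaglandin synthesis, had 120.1, 136, 129 and 141 TPM in PWD cells with LPS and 5.98, 4.51, 7.36 and 7.48 TPM without, against 394, 425, 432 and 463 TPM in C57 cells with LPS and 6.21, 8.72, 7.93 and 6.34 TPM without. The untreated groups overlapped, treated PWD cells lay below treated C57 cells, and the difference was -1.51 ± 0.22 (adjusted p = 2.88e-05). Hdc, which makes histamine, had 5.10, 5.74, 5.92 and 6.70 TPM in PWD cells with LPS and 2.77, 3.41, 7.00 and 5.78 TPM without, against 28.1, 29.0, 35.4 and 36.7 TPM in C57 cells with LPS and 4.83, 4.19, 3.93 and 5.27 TPM without. It rose in C57 and was not called in PWD, a difference of -2.26 ± 0.24, -1.77 in mice 1 and 2 and -2.75 in mice 3 and 4. Hpgds, which turns the cyclooxygenase product into prostaglandin D2, rose by 0.63 in PWD and fell by 1.02 in C57, a difference of 1.65 ± 0.36.

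Nos2, the inducible nitric oxide synthase, had 12.2, 14.3, 16.6 and 15.7 TPM in PWD cells with LPS and 0.106, 0.105, 0.209 and 0.234 TPM without, against 58.7, 81.6, 77.4 and 68.8 TPM in C57 cells with LPS and 0.979, 1.64, 1.64 and 1.09 TPM without. Its levels were lower in PWD in both states. The difference of -1.21 ± 0.17 (adjusted p = 1.56e-05) reversed to 0.18 with a pseudocount of 0.1 TPM (adjusted p = 0.793), so its direction depends on the pseudocount. Acod1, which makes itaconate, had 1596 ± 156 and 148 ± 36.7 TPM in treated and untreated PWD cells and 2424 ± 313 and 408 ± 62.0 TPM in treated and untreated C57 cells, a difference of 0.88 ± 0.19 that was not called in mice 3 and 4 alone.

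The LPS receptor complex and its adaptors gave 2 of 20 members lower (Cd180 and Ly86) and none higher by limma, with a median of 0.12. Over all genes 5.99% were lower and 5.41% higher. The members called higher were 2 after scaling, 5 in mice 1 and 2, none in mice 3 and 4 and 1 without untreated PWD library 4; those called lower were 3, 1 and 4 after scaling and in these pairs, and 1 to 2 without single libraries. Tlr4 fell in both strains, to 52.1 ± 1.65 TPM in PWD cells with LPS, against 88.8 ± 8.76 TPM untreated, and to 92.9 ± 6.16 TPM in C57 cells with LPS, against 133 ± 7.79 TPM untreated. The responses differed by -0.24 (-0.54 to 0.06; adjusted p = 0.35), by 0.05 in mice 1 and 2 and by -0.53 in mice 3 and 4, where the call was made (adjusted p = 0.0206). The Tlr4 values of the 2 pairs lay 0.58 apart on deposited TPM (limma adjusted p = 0.0558) and -0.02 after scaling (adjusted p = 0.991). Cd14 rose by 1.42 in PWD and 1.39 in C57, a difference of 0.04 (-0.24 to 0.32). Cd180, a TLR4-like receptor that restrains LPS signalling in dendritic cells, stood at 9.44, 11.4, 11.2 and 11.2 TPM in PWD cells with LPS and 25.4, 27.0, 38.5 and 34.7 TPM without, against 42.0, 42.0, 54.8 and 52.0 TPM in C57 cells with LPS and 53.9, 52.4, 48.1 and 50.8 TPM without. It fell in PWD and was not called in C57, a difference of -1.33 ± 0.16 (adjusted p = 2.01e-06).

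Scavenger and pattern receptors gave 4 of 26 higher (Clec5a, Tlr2, Tlr8 and Nod2) and 4 lower (Clec4n, Clec7a, Tlr3 and Tlr13), with a median of -0.00514. The higher and lower counts were 10 and 3 in mice 1 and 2, with a median of 0.32. In mice 3 and 4 they were 0 and 8, with a median of -0.31, and after scaling 8 and 6. Tlr13, the mouse sensor of bacterial ribosomal RNA, had 12.6, 12.9, 16.9 and 14.0 TPM in PWD cells with LPS and 69.1, 69.6, 94.8 and 94.2 TPM without, against 70.1, 66.1, 80.8 and 79.6 TPM in C57 cells with LPS and 108, 108, 97.1 and 101 TPM without. Untreated PWD cells were below C57 cells, LPS widened the gap, and the difference was -1.97 ± 0.17. Tlr3, the sensor of double-stranded RNA, was at most 0.835 TPM in any PWD library and averaged 18.7 ± 1.96 TPM in C57 cells with LPS and 5.05 ± 0.809 TPM without, a difference of -1.68 ± 0.22. Clec7a, the beta-glucan receptor Dectin-1, fell in both strains and further in PWD, with a difference of -0.84 ± 0.17. Fcgr1 and Il21r fell in PWD cells and not in C57 cells. Fcgr1, the high-affinity IgG receptor, had 10.2 ± 1.95 and 24.5 ± 5.88 TPM in treated and untreated PWD cells and 82.5 ± 4.99 and 63.0 ± 8.32 TPM in treated and untreated C57 cells, a difference of -1.56 ± 0.20. Il21r, the interleukin 21 receptor, had 8.21 ± 2.52 and 27.0 ± 7.33 TPM in treated and untreated PWD cells and 92.5 ± 6.28 and 81.5 ± 5.42 TPM in treated and untreated C57 cells, a difference of -1.79 ± 0.22.

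Brakes on Toll-like receptor and cytokine signalling gave 4 of 29 higher (Dusp4, Tnfaip3, Nfkbib and Tnip1) and 3 lower (Dusp5, Otud1 and Trib1), with a median of 0.03. The shares over all genes were 5.41% higher and 5.99% lower. Tnfaip3, the ubiquitin-editing enzyme A20, had 264, 275, 285 and 264 TPM in PWD cells with LPS and 41.0, 40.0, 57.5 and 56.2 TPM without, against 165, 173, 192 and 179 TPM in C57 cells with LPS and 55.1, 55.9, 58.8 and 56.8 TPM without, a difference of 0.85 ± 0.14 (adjusted p = 0.000118). Dusp4 and Dusp5, phosphatases of MAP kinases in the nucleus, moved in opposite directions, by 1.56 ± 0.16 and -0.98 ± 0.18. Irak1bp1, a partner of Irak1 in NF-kB signalling, rose by 2.18 in PWD and fell by 0.68 in C57, with 15.2, 15.5, 15.1 and 16.2 TPM in PWD cells with LPS and 0.367, 0.449, 0.627 and 0.755 TPM in C57 cells with LPS, a difference of 2.87 ± 0.19. Of 34 NF-kB, AP-1 and early response factors, 4 were higher (Batf, Batf3, Egr3 and Nfkb2) and 3 lower (Batf2, Myc and Klf4), where 5.41% and 5.99% of all genes were. The median was -0.08. With a pseudocount of 0.1 TPM Batf2 turned to 0.77 and was not called. Batf, an AP-1 factor, rose by 1.21 in PWD, to 36.7 ± 1.94 TPM, and stood at 20.6 ± 3.40 TPM in C57 cells with LPS and 20.6 ± 2.31 TPM without, a difference of 1.21 ± 0.15. Batf3, needed for cross-presenting dendritic cells, rose by 0.43 in PWD and fell by 0.65 in C57.

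Dendritic cell maturation and migration genes gave 7 of 26 higher (Cacnb3, Ccl22, Traf1, Icam1, Cd83, Icosl and Birc3) and 1 lower (Il15ra), with a median of 0.34; the count of higher members was 15 in mice 1 and 2, 4 in mice 3 and 4, and 12 without untreated PWD library 4. Cacnb3, a calcium channel subunit that marks migratory dendritic cells, had 20.4, 24.6, 23.2 and 28.0 TPM in PWD cells with LPS and 3.46, 3.74, 4.91 and 6.10 TPM without, against 9.89, 12.6, 9.30 and 10.7 TPM in C57 cells with LPS and 8.91, 10.1, 5.73 and 7.52 TPM without, a difference of 1.81 ± 0.22. Traf1, a signalling adaptor of the TNF receptor family, had 226 ± 9.62 and 30.6 ± 5.06 TPM in treated and untreated PWD cells and 157 ± 15.4 and 47.5 ± 9.75 TPM in treated and untreated C57 cells, a difference of 1.14 ± 0.18. Icam1, an adhesion molecule of the immune synapse, differed by 0.91 ± 0.17. Cd40, the receptor for T cell help, did not pass the test, with a difference of -0.07 (-0.57 to 0.44) and lower levels in PWD in both states, 84.1 ± 14.3 and 7.98 ± 2.01 TPM in treated and untreated PWD cells against 147 ± 8.33 and 14.1 ± 3.60 TPM in treated and untreated C57 cells. Ccr7, the receptor that guides dendritic cells to lymph nodes, differed by 0.33 (-0.10 to 0.76). Of the presentation genes, 2 of 23 of MHC class I were higher (Tap1 and H2-T24) and 1 of 14 of MHC class II (H2-Oa), where 5.41% of all genes were. The class I count was 4 after scaling and without PWD LPS library 1, 7 in mice 1 and 2 and 0 in mice 3 and 4. Tap1, which carries peptides into the endoplasmic reticulum, differed by 0.57 ± 0.14 and was not called in mice 3 and 4 alone.

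Cell death and inflammasome genes gave 5 of 29 higher (Fas, Zbp1, Nlrc4, Bcl2l11 and Nek7) and 4 lower (Aim2, Mlkl, Bid and Naip2), with a median of -0.03. The lower count was 8 after scaling, 1 in mice 1 and 2, 11 in mice 3 and 4, and 2 without C57 LPS library 3, PWD LPS library 1 or untreated PWD library 3; the higher count was 7, 10 and 2 after scaling and in the same pairs of mice. Fas, the death receptor, had 145 ± 5.62 and 38.4 ± 6.61 TPM in treated and untreated PWD cells and 60.0 ± 8.64 and 36.0 ± 2.23 TPM in treated and untreated C57 cells, a difference of 1.19 ± 0.15. The untreated groups overlapped and the treated groups did not. Zbp1, a sensor that starts necroptosis, differed by 1.05 ± 0.16. Aim2, the sensor of cytosolic DNA, rose in C57 and was not called in PWD, a difference of -0.89 ± 0.19 that missed the threshold in mice 1 and 2 alone.

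The cholesterol pathway had the largest share of members with a lower response. Of 23 tested genes of cholesterol synthesis and uptake, 12 were called lower and 1 higher, with a median of -0.52. All 23 fell in PWD (52.4% of all genes did), with a median response of -1.53, and 22 fell in C57 (52.2% of all), with a median of -0.77. In untreated cells 18 of the 23 were higher in PWD (20.1% of all genes were), with a median PWD minus C57 difference of 0.65, and after LPS the median was 0.11. Hmgcs1, an early enzyme of the mevalonate pathway, had 25.1, 24.1, 25.7 and 23.7 TPM in PWD cells with LPS and 90.2, 85.6, 81.7 and 97.2 TPM without, against 32.0, 35.8, 38.8 and 37.4 TPM in C57 cells with LPS and 54.5, 54.3, 60.9 and 54.1 TPM without. The untreated groups did not overlap, with PWD higher, nor did the treated groups, with PWD lower, and the difference was -1.18 ± 0.14 (adjusted p = 8.92e-07). Idi1 and Fdft1, which act on isoprenoid units and at the squalene step, differed by -1.11 ± 0.15 and -0.98 ± 0.16. The count of lower members was 8 in mice 1 and 2, 15 in mice 3 and 4 and 15 after scaling. Lipid efflux and LXR targets gave 3 of 20 higher (Abca1, Apoc2 and Fads1) and 2 lower (Scd1 and Fasn).

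Of 29 ribosome biogenesis genes, 9 had a lower response in PWD and 1 a higher one (Bop1), with a median of -0.37. In PWD 28 fell (52.4% of all genes did), with a median response of -0.98, and in C57 26 fell (52.2% of all), with a median of -0.60. The count of lower members was 5 in mice 1 and 2, where the median was -0.07, 18 in mice 3 and 4, and 15 after scaling. Wdr43, a factor of the small ribosomal subunit, averaged 21.3 ± 1.76 and 39.1 ± 7.57 TPM in treated and untreated PWD cells and 45.7 ± 3.36 and 40.4 ± 3.81 TPM in treated and untreated C57 cells, a difference of -1.01 ± 0.17. Myc, the transcription factor that drives this programme, differed by -0.67 ± 0.16. Of 35 cell cycle genes, 32 fell in PWD and 34 in C57, where 52.4% and 52.2% of all genes did. In response 2 were called higher (E2f8 and Rrm2) and 2 lower (Ccnd1 and Mcm2), where 5.41% and 5.99% of all genes were. The counts were 4 and 6 after scaling, 12 and 1 in mice 1 and 2, and 1 and 7 in mice 3 and 4. Without single libraries they were 1 to 2 and 1 to 6, with 6 lower without untreated PWD library 1. Ccnd1, cyclin D1, had 4.02, 4.10, 4.73 and 3.63 TPM in PWD cells with LPS and 34.4, 39.1, 49.9 and 46.7 TPM without, against 26.0, 27.5, 30.0 and 25.9 TPM in C57 cells with LPS and 39.4, 42.0, 37.5 and 38.3 TPM without. Untreated levels overlapped and treated PWD cells stood alone, with a difference of -2.57 ± 0.17 (adjusted p = 2.77e-11), -2.31 and -2.83 within the pairs of mice. E2f8, a repressor of cell cycle genes, rose by 1.12 in PWD and fell by 0.39 in C57 on deposited TPM. Its difference was 1.51 ± 0.18 (1.53 after scaling), and its fall in C57 was not checked after scaling.

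Genes known from osteoclasts went both ways: Itgb3, Acp5 and Calcr rose in PWD cells, while Mmp9 and Dcstamp fell. Itgb3, the beta 3 integrin chain of osteoclasts and platelets, had 75.7, 70.9, 68.8 and 65.6 TPM in PWD cells with LPS and 13.6, 12.9, 17.1 and 17.3 TPM without, against 2.49, 2.63, 3.20 and 3.31 TPM in C57 cells with LPS and 5.19, 6.12, 5.70 and 5.76 TPM without. It rose in PWD and fell in C57, a difference of 2.92 ± 0.15 (adjusted p = 1.09e-13), 3.28 and 2.57 within the pairs of mice. Acp5, the tartrate-resistant acid phosphatase, had 637 ± 25.9 and 289 ± 28.9 TPM in treated and untreated PWD cells and 39.6 ± 6.67 and 40.7 ± 2.27 TPM in treated and untreated C57 cells, a difference of 1.20 ± 0.19. Calcr, the calcitonin receptor, had 11.1, 9.40, 8.10 and 8.66 TPM in PWD cells with LPS and at most 0.180 TPM in any other library, a difference of 3.07 ± 0.14. Mmp9 fell by 2.33 in PWD and 0.95 in C57, a difference of -1.38 ± 0.24, and Dcstamp, which is needed for cell fusion, fell by 0.70 in PWD and was not called in C57, a difference of -0.75 ± 0.24 (adjusted p = 0.0429). Of the 14 stromal, endothelial and osteoclast genes tested, 5 were higher (Acp5, Calcr, Dcn, Pdgfrb and Pecam1) and 2 lower (Mmp9 and Dcstamp), counts that were 3 to 5 and 1 to 2 without single libraries, with sums of 839 to 886 TPM in PWD cells with LPS, 626 to 817 in untreated PWD cells, 317 to 385 in C57 cells with LPS and 477 to 499 in untreated C57 cells. The part of such cells in these results was not tested.

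Mmp13, an interstitial collagenase, rose in both strains, with 213, 188, 198 and 180.3 TPM in PWD cells with LPS and 8.56, 5.83, 11.1 and 9.76 TPM without, against 412, 462, 568 and 458 TPM in C57 cells with LPS and 92.1, 119, 123 and 86.8 TPM without. Its level stayed lower in PWD, and the difference was 2.18 ± 0.20. Timp1, an inhibitor of metalloproteinases, differed by 1.36 ± 0.26, and Mmp9, a gelatinase, by -1.38 ± 0.24. Of 26 proteases and tissue factors, 3 were higher (Mmp13, Timp1 and Mmp14) and 5 lower (Mmp9, Serpina3g, Serpina3f, F3 and Serpinb9).

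Other genes with large differences had their highest levels in PWD cells with LPS, and Krt6b, Has1, Loxl2 and Csrp3 were at most 1.09 TPM in every C57 library. Krt6b, a keratin of stressed epithelia, had 32.7, 34.0, 36.6 and 33.2 TPM in PWD cells with LPS and 2.04, 1.08, 2.11 and 1.20 TPM without, at most 0.178 TPM in C57 cells with LPS and 0 in untreated C57 cells, a difference of 3.65 ± 0.16. Has1, a hyaluronan synthase, had 25.1, 21.6, 26.0 and 22.1 TPM in PWD cells with LPS and 0.946, 0.739, 0.847 and 0.583 TPM in C57 cells with LPS, a difference of 3.21 ± 0.22. Loxl2, a lysyl oxidase of the matrix, had a response of 3.43 in PWD and 0.35 in C57. Csrp3, a LIM protein known from muscle, averaged 12.2 ± 1.92 TPM in PWD cells with LPS and 0.113 ± 0.0902 TPM in C57 cells with LPS. The treated groups did not overlap for either gene, with differences of 3.09 ± 0.21 and 3.27 ± 0.19 (5.14 for Csrp3 with a pseudocount of 0.1 TPM). Slc2a3, the glucose transporter GLUT3, rose by 1.90 in PWD and fell by 0.60 in C57, with 29.0, 36.0, 38.6 and 40.9 TPM in PWD cells with LPS and 1.30, 1.27, 1.45 and 1.95 TPM in C57 cells with LPS. Rdh10, which makes retinal for retinoic acid synthesis, differed by 2.46 ± 0.19.

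In the other direction, Hamp, which encodes the iron hormone hepcidin, was induced in C57 cells, with 0.381, 0.316, 0 and 0.332 TPM in PWD cells with LPS and 0 in all untreated PWD libraries, against 13.3, 22.6, 35.9 and 16.3 TPM in C57 cells with LPS and 0, 0.816, 1.07 and 0.351 TPM without. Its difference was -3.52 ± 0.31 (adjusted p = 1.23e-08). Of 18 iron and metallothionein genes, 3 were lower (Hamp, Slc30a1 and Slc39a8) and 3 higher (Steap4, Lcn2 and Ncoa4). Ncoa4, the receptor for autophagy of ferritin, rose by 0.78 in PWD and was not called in C57, a difference of 0.83 ± 0.11, and Steap4, a metalloreductase, differed by 1.24 ± 0.15. Pnp2, a purine nucleoside phosphorylase, rose less in PWD than in C57, and St3gal5, the ganglioside GM3 synthase, rose in C57 without a called change in PWD, with differences of -1.86 ± 0.21 and -1.73 ± 0.28. Ms4a4a, a membrane protein of macrophages, fell by 0.95 in PWD and rose by 0.99 in C57. Angpt4, an angiopoietin, fell in PWD, to 2.42 ± 0.361 TPM with LPS, against 10.7 ± 2.62 TPM untreated, and was near 0 in C57.

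Of the remaining lists, glycolysis and hypoxia gave 1 of 27 higher (Egln3) and 2 lower (Hk3 and Pfkfb4), and oxidative phosphorylation 1 of 28 higher (Ndufa2). Over all genes 5.41% were higher and 5.99% lower. The unfolded protein and integrated stress response gave 4 of 27 higher (Atf5, Ddit3, Phgdh and Ppp1r15a). That count was 2 without C57 LPS library 1 or 2, untreated C57 library 4, untreated PWD library 1 or 2 or PWD LPS library 3, and 1 without untreated C57 library 3. Nrf2 and antioxidant genes gave 3 of 25 higher (Prdx5, Cat and Gpx1) and 4 lower (Nfe2l2, Keap1, Gclc and Gclm). These counts were 7 and 7 after scaling, 10 and 2 in mice 1 and 2, and 1 and 9 in mice 3 and 4. Without single libraries they were 1 to 5, with 5 without C57 LPS library 4 or untreated PWD library 3, and 2 to 6, with 6 without untreated PWD library 1 or 2 and 2 without PWD LPS library 4. Among these Cat, which breaks down hydrogen peroxide, rose by 0.71 in PWD and fell by 0.39 in C57 on deposited TPM. Its difference was 1.10 ± 0.13 (1.11 after scaling), and its fall in C57 was not checked after scaling. Gclc, the rate-limiting enzyme of glutathione synthesis, fell in PWD and differed by -0.92 ± 0.14. The plot of the lists shows these shares beside the medians within each pair of mice.

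**Figure D5:**
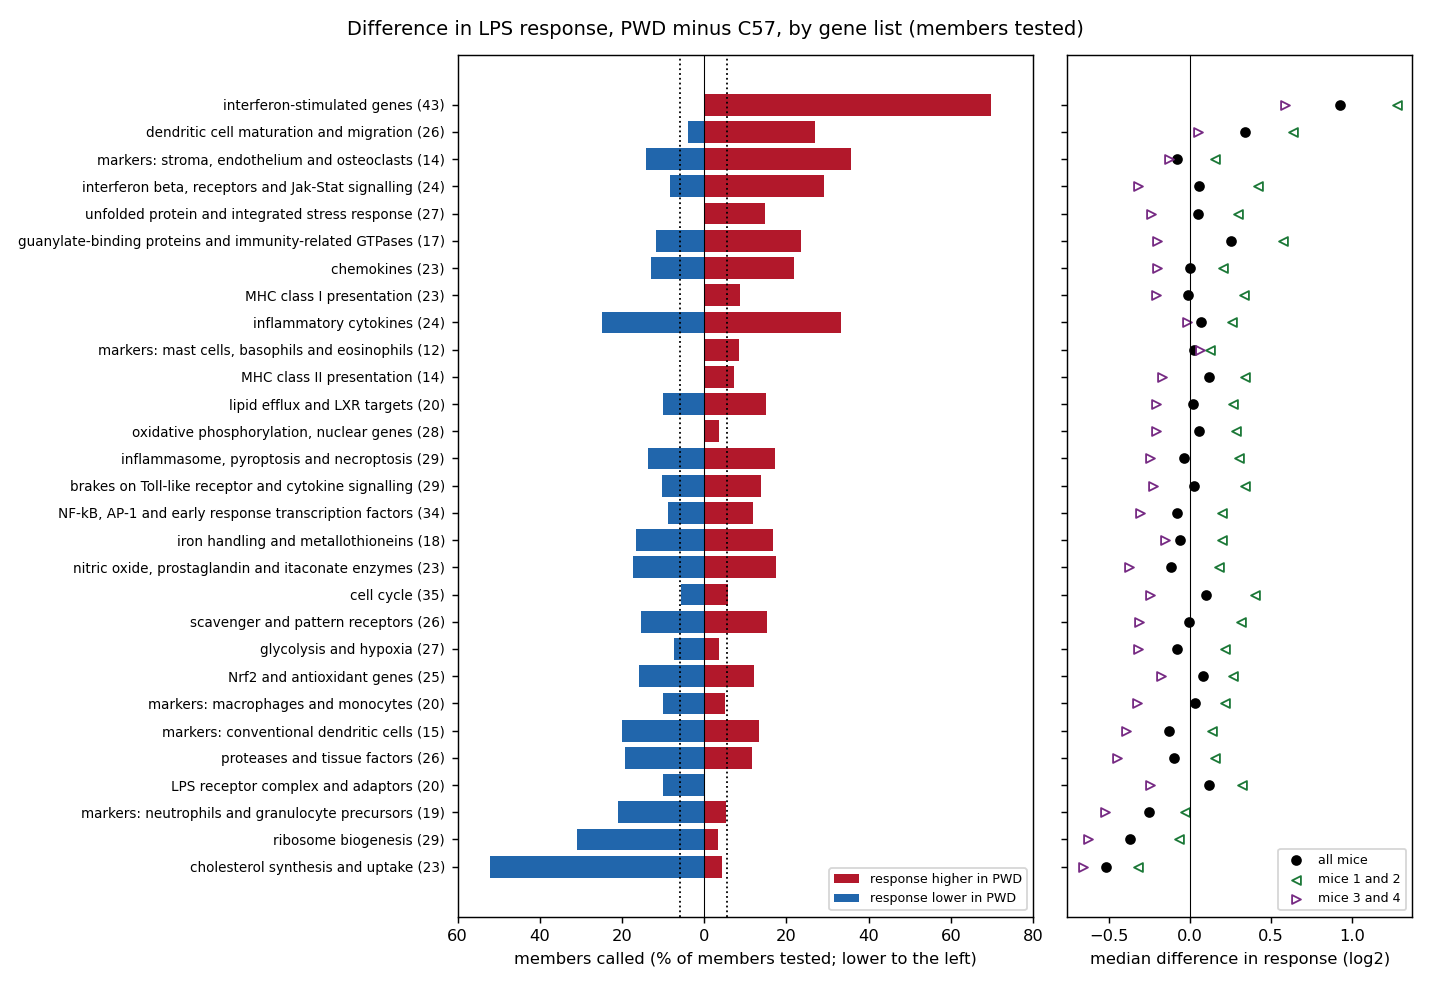
Left, share of tested members of each gene list with a higher response in PWD (red, to the right) and a lower response (blue, to the left), in percent, with the number tested in brackets and dotted lines at 5.41% and 5.99%, the shares over all genes; right, median difference in log2 units over all mice (dots), in mice 1 and 2 (triangles to the left) and in mice 3 and 4 (triangles to the right). The interferon-stimulated genes, 30 of 43, stand at the top and cholesterol synthesis and uptake, 12 of 23 lower, at the bottom; the list of lymphocyte markers, with 5 genes tested, is left out.

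Conventional dendritic cell markers gave 2 of 15 higher (Batf3 and Sirpa) and 3 lower (Irf4, Clec10a and Mgl2). Clec10a and Mgl2, lectins of monocyte-derived dendritic cells and macrophages, fell further in PWD, with differences of -1.36 ± 0.20 and -1.08 ± 0.23. Macrophage and monocyte markers gave 1 of 20 higher (Adgre1) and 2 lower (Fcgr1 and Ccr2). Over all genes 5.41% were higher and 5.99% lower, the shares beside which all marker lists here are read. Neutrophil markers gave 1 of 19 higher (Lcn2) and 4 lower (Mmp9, Retnlg, S100a8 and Cxcr2), a lower count that was 1 without untreated C57 library 2, C57 LPS library 4 or PWD LPS library 1 and 2 without C57 LPS library 3, PWD LPS library 2 or 4 or untreated PWD library 3 or 4. Their sums were 1423 to 2121.5 TPM in PWD cells with LPS, 2002 to 3340 in untreated PWD cells, 2330 to 4320 in C57 cells with LPS and 3460 to 5509 in untreated C57 cells. Mast cell, basophil and eosinophil markers gave 1 of 12 higher (Kit), with sums of 690.5 to 960.3, 1035 to 1321, 245 to 352 and 400.1 to 529 TPM in the same order of groups. Epx, an eosinophil peroxidase, averaged 24.3 and 26.6 TPM in treated and untreated PWD cells and 0.391 and 0.565 TPM in treated and untreated C57 cells. Lymphocyte markers summed to 28.8 TPM at most, with 5 of 20 tested, 1 higher (Cd79b) and 1 lower (Klrb1c), neither of them called with a pseudocount of 0.1 TPM. The part of such cells in the results above was not tested.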

How the data were processed

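RNA was sequenced from 24 cultures of mouse bone marrow-derived dendritic cells, of which the 16 of PWD and C57 enter this comparison. The authors deposited TPM values per gene. STAR, edgeR and the build mm10 are named in the submitters' processing notes, which give no role or version, and no source used here names the annotation or the counting tool. TPM keeps no library depth, so no counting interval can be given.

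Rows with the same symbol were summed (110 of 55401 rows), and genes with at least 1 TPM in at least 4 libraries were tested. Values were used as log2 of TPM with a pseudocount of 1, which understates the change of low genes and can enlarge a difference in response where 1 strain is near 0. limma 3.58.1 (R 4.3.3, empirical Bayes with trend and robust settings) was fitted to the means of 6 groups over 24 libraries, and p-values were adjusted by Benjamini-Hochberg over 13246 genes, with 0.05 as the threshold; all adjusted p-values given are from it. The script was tested on simulated data. Standard errors are from the same fit. Each strain and number is 1 mouse, per the series' design text, which describes separate cultures from individual mice; treated and untreated libraries of a mouse deviated from their group means together (r of 0.0861 to 0.176, highest with their own number in 8 of 8 mice), and the fit was repeated with each mouse as a block. Correlations between libraries of a group were 0.98 to 0.99, and no pair was identical.

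The genes named are part of those taken by a rule: the 15 largest differences in each direction among called genes of at least 10 TPM in 1 group whose responses did not overlap, 9 standard LPS genes, and the 4 called genes with the largest difference in each list. Il12a, Il27, Ebi3, Ccl7, Cxcl10, Usp18, Isg15, Ifit1, Rsad2, Gbp4, Cd40, Ccr7, Acod1 and Epx, and list members named without values, were chosen after their values were seen. Some list members are counted but not reported singly here. The members and lists were chosen with earlier results of these data known. Promoters are RefSeq sequences of GRCm38.p6. How reads of PWD, which differs in sequence from the reference strain, mapped to mm10 was not tested.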

Additional observations from a re-analysis of the deposited data

Results flagged for a closer look

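In 22 of 380 groups of 4 libraries, 1 library lay far from the other libraries of its group by Dixon's test. Groups whose libraries were all equal are counted in the 380 but could not be flagged. Where all other libraries of a group were at 0, as for Apol9b, Iigp1, Angpt4, Il10, Ifnb1 and Calcr, the flag was fixed in advance. No share to be met by chance is therefore given. Untreated C57 library 2 was high for Irf7 (52.8 TPM), Gbp5 (25.1), Cxcl10 (265), Rsad2 (133) and Calcr (0.0259), and untreated C57 library 3 was high for Dusp4 (4.85) and Hmgcs1 (60.9) and low for Wdr43 (34.8). Untreated C57 library 1 was high for Il10 (0.0662). PWD LPS library 1 was low for Tnf (585), Gbp5 (148), Cd180 (9.44) and Cd40 (62.8), library 3 was low for Hamp (0) and library 4 high for Apol9b (0.0544). Untreated PWD library 4 was high for Iigp1 (0.043), Fdft1 (27.5) and Ncoa4 (161), library 1 high for Ifnb1 (0.111) and library 2 low for Ccl24 (39.9). C57 LPS library 2 was high for Angpt4 (0.0243) and Ccr7 (200).

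The difference in response differed between mice 1 and 2 and mice 3 and 4 for 3227 genes (limma, adjusted p under 0.05). Mice 1 and 2 minus mice 3 and 4 gave 0.715 for Itgb3, 0.978 for Hdc, 0.612 for Cd14, -0.764 for Ccl20, 1.06 for Irf9 and 1.01 for Irgm1. It gave 0.802 for Cd180, 0.529 for Tnfaip3, 0.98 for Traf1, 0.677 for Icam1 and 0.656 for Fas. Clec10a had 1.24, Acp5 0.702, Usp18 0.955 and Acod1 0.948. The median over all genes was 0.26 in mice 1 and 2 and -0.25 in mice 3 and 4. After median-of-ratios scaling 10 genes passed the threshold. The value then was 0.196 for Itgb3, 0.426 for Hdc, 0.0048 for Cd14, -0.850 for Ccl20, 0.474 for Irf9 and 0.432 for Irgm1. It was 0.208 for Cd180, -0.0711 for Tnfaip3, 0.383 for Traf1, 0.0733 for Icam1 and 0.0614 for Fas. None of these genes with a scaled value passed. Sex and the share of structural RNA cannot be told apart.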

How the results depend on the processing

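The count of 1510 genes (717 higher, 793 lower) was within 1.5 times with a pseudocount of 0.1 TPM, no filter or a filter at 5 TPM, without trend and robust settings, with the PWD and C57 groups alone, and with the replicate block by mouse (1542 genes, 1359 of them among the 1510). The block changed the call of none of 95 of the genes described, and leaving out single libraries ended none of their calls. The count was 2861 (1486 and 1375) after median-of-ratios scaling, 2966 (1535 and 1431) after quantile normalization, 2730 (1402 and 1328) without structural RNA and 2453 (1171 and 1282) with a term for the number pair. It was 346 (180 and 166) for a difference of at least 1, 2790 (2458 and 332) in mice 1 and 2 and 2881 (324 and 2557) in mice 3 and 4. Scaling with the block, added after seeing the data, gave 3095 (1630 and 1465). Without single libraries the count was 1249 to 1621, with 565 to 873 higher and 614 to 1038 lower. Some list counts also moved by over 1.5 times without single libraries. Lower members were 3 to 5 for chemokines, iron handling, early response factors and proteases, 1 to 4 for Jak-Stat signalling, 2 to 4 for macrophage markers, 0 to 2 for interferon-stimulated genes (2 without untreated C57 library 2, 1 without untreated PWD library 2 or PWD LPS library 3), 1 to 2 for lipid efflux and 0 to 1 for the unfolded protein response and MHC class I. Higher members were 1 to 3 for conventional dendritic cell markers, 1 to 2 for MHC class II, 0 to 2 for glycolysis and for lymphocyte and neutrophil markers, and 0 to 1 for oxidative phosphorylation and for macrophage and mast cell markers. The cause of these shifts was not tested.

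Nos2 reversed to 0.18 with the pseudocount of 0.1, where Ifnb1, Il23a, Il12a and Il27 lost their calls. In genes not called, the sign turned as follows. Il1b was 0.30 in mice 1 and 2 (0.0126 scaled) and -0.14 to 0.0688 without single libraries. Il6 was -0.26 in mice 3 and 4 and -0.16 to 0.0872 without single libraries. Tlr4 was 0.0508 in mice 1 and 2 and was called at -0.53 in mice 3 and 4. Cd14 was -0.19 after quantile normalization, -0.27 in mice 3 and 4 and -0.044 to 0.0946 without single libraries. Cxcl10 was -0.26 in mice 3 and 4 (-0.0036 scaled) and -0.0417 to 0.26 without single libraries. Cd40 was 0.0634 after quantile normalization, 0.32 in mice 1 and 2 (0.037 scaled) and -0.24 to 0.0677 without single libraries. Ccl24 and Myc lost their calls in mice 3 and 4 after scaling (-1.60 and -0.47). Cxcl10 and Rsad2 were called after quantile normalization (0.76 and 0.91). Tnf was called after scaling (0.37), without structural RNA (0.37), with the term for the number pair (0.35) and in mice 1 and 2 (0.60). It was also called in mice 3 and 4 after scaling (0.42) and after scaling with the block (0.37). Ccr7 was called after scaling with the block (0.33). TPM gives no depth, so levels near 0 have no known counting error.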
